A study of Mus musculus with 46 samples.

Results

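The genes described here are the replication-dependent histone genes of the mouse, taken as every row of the deposited expression table whose symbol starts with Hist1h, Hist2h, Hist3h or Hist4h. The rule found 64 of 21671 genes: 6 for the linker histone H1, 15 for H2A, 19 for H2B, 11 for H3 and 13 for H4. Of these, 60 reached at least 1 eRPKM in at least 3 animal IDs and were tested. The other 4 are Hist1h2bq, listed at 0 in all 46 libraries, Hist1h2br, with a highest value of 0.0569 eRPKM, Hist1h2ao, with a highest value of 0.284 eRPKM, and Hist1h2aa, with a highest value of 1.32 eRPKM. An eRPKM is the deposited number of exonic reads scaled to the length of the gene and to the reads of the library, so values of different genes are compared per length. Most abundant, below, means the highest eRPKM, not the most reads.

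Total RNA depleted of ribosomal RNA was sequenced from FVB mouse liver and liver tumours. The 4 groups were control liver (11 libraries, 11 IDs), tumours of tet-Myc/LAPtTA mice with the transgene on (Myc tumours, 16 libraries, 7 IDs), tumours of tet-Myc/LAPtTA mice fed doxycycline for 16 hours (Myc-off tumours, 8 libraries, 3 IDs), and tumours of tet-MycVD/LAPtTA mice (MycVD tumours, 11 libraries, 10 IDs). LAPtTA is a liver-specific driver of a tetracycline-responsive Myc transgene; it was active from before birth in the tumour mice, and doxycycline switches it off. MycVD is Myc with the substitution V394D, known to reduce its contact with Miz1, a transcription factor. Libraries that carry the same ID and different letters were taken as tumours of the same animal and averaged, so n counts IDs. The labels call the controls control liver, with no genotype, and give no ages.

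Histones package DNA: pairs of H2A, H2B, H3 and H4 form the nucleosome core, and H1 binds the linker DNA. Replication-dependent histone genes lie in clusters and are transcribed mainly in S phase under NPAT, and their mRNAs end in a conserved stem-loop, bound by SLBP, in place of a poly(A) tail. When DNA replication ends these mRNAs are degraded, so in resting liver most of them are scarce, while a few members also make polyadenylated transcripts and stay on in resting cells.

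The stem-loop was read from the GENCODE transcripts of 39 of the 64 genes, and the 7 below are shown because they compare members of each class and differ in how much transcript follows the loop. Capitals mark the 16-base stem and loop, which matched the pattern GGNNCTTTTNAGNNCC.

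Hist1h1c: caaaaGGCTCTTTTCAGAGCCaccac
Hist1h2ac: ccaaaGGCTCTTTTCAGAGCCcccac
Hist1h2bm: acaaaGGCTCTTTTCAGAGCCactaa
Hist1h3a: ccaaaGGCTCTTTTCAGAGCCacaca
Hist1h4d: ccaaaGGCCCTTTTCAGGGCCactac
Hist4h4: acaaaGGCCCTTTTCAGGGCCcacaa
Hist1h4j: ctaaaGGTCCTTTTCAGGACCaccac

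The letters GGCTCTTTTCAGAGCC, shared by the H1, H2A, H2B and H3 members shown, occurred in 21 of the 39 transcripts and were the most frequent form. The transcript ran on for 37 bases after the loop in Hist1h3a and 46 bases in Hist1h2bm, but for 840 bases in Hist1h1c, 2010 bases in Hist1h2ac and 2445 bases in Hist4h4. In 17 of the 39 genes more than 300 annotated bases followed the loop. Where no loop was found, it may lie beyond the annotated end, which was not tested.

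The regions just before the start sites, from RefSeq on GRCm38.p6, are shown for the linker histone pair that came apart in some of the MycVD tumours. Shown too are those of 1 H4 member that fell in the MycVD comparison and of the H2A member with the lowest adjusted p when Myc was switched off. The last is the H4 member with the highest control level. Capitals mark the TATA box letters TATAAA, the CCAAT box and the octamer ATTTGCAT, on either strand.

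Hist1h1b, chr13:21780626-21780805, minus strand: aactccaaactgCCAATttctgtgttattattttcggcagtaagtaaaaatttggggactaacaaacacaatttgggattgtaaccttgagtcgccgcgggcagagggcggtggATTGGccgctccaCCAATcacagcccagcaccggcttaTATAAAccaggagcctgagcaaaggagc
Hist1h1a, chr13:23763488-23763667, plus strand: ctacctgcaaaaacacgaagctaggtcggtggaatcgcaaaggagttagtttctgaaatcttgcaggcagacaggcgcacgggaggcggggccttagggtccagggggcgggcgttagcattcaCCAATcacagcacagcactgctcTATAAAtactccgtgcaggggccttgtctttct
Hist1h4k, chr13:21750554-21750733, minus strand: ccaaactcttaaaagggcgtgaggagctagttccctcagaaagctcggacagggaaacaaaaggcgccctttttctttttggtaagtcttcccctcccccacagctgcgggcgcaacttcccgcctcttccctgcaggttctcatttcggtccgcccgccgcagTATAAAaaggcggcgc
Hist1h2ac, chr13:23683960-23684139, minus strand: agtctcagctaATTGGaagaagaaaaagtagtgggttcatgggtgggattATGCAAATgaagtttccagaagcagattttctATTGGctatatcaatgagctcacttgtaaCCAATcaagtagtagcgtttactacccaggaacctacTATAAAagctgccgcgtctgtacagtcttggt
Hist1h4d, chr13:23581388-23581567, plus strand: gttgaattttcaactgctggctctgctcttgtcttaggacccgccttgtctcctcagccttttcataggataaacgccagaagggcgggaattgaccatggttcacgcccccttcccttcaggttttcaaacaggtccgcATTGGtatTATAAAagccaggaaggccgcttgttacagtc

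Windows from 250 bases before to 50 bases after the start were given for 58 of the 64 genes. TATAAA was in 58.6% of them and in 14.2% of all 27025 such windows, CCAAT in 84.5% against 37.9%, and the octamer ATTTGCAT in 22.4% against 1.75%, each on either strand. All 46 windows of H1, H2A, H2B and H3 genes held CCAAT, as did 3 of 12 H4 windows. The octamer was limited to 7 of 15 H2A and 6 of 16 H2B windows. The E2F-type letters TTTCGCGC were in 13.8% against 0.318%, while TTTGGCGC and the Myc-type E-box CACGTG were in none of the 58, against 0.537% and 7.24% of all windows. No Hist1h2bc, Hist1h3a, Hist1h3f, Hist2h2be, Hist2h4 or Hist3h2bb-ps window was in the table.

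Facts of the libraries bear on these genes. Depth recovered from the steps of the values was 3.25 to 12.6 M reads. In every library Eef1a1, the abundant translation elongation factor, had between 1364 and 1703 reads per kilobase whatever the depth, and the highest histone members came near that range in Myc tumours: Hist1h1b had 1293 to 1653 reads per kilobase there, against 20.8 to 122 in control liver. A fixed number of reads per kilobase gives a lower eRPKM in a deeper library, and the part of this in the fold changes of abundant members was not tested. In 8 libraries Gapdh was under 30 eRPKM, and 5 of these are Myc tumours, 2 MycVD tumours and 1 a control liver. Near-identical copies limit single genes: only Hist1h1a, Hist1h1b, Hist1h1t and Hist2h2be shared no 50-base stretch with another transcript, and 30 members shared more than 50% of their stretches. In 5 members, Hist2h2aa1, Hist2h2bb, Hist2h3b, Hist1h2bq and Hist1h2br, every stretch was shared. The level of the Myc row was 6.35 ± 5.10 eRPKM in control liver (SD, n = 11) and 7.75 ± 1.69 in Myc tumours (SD, n = 7); the sources used here do not give whether transgene reads fall in that row, so it does not check the labels.

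**Figure D1:**
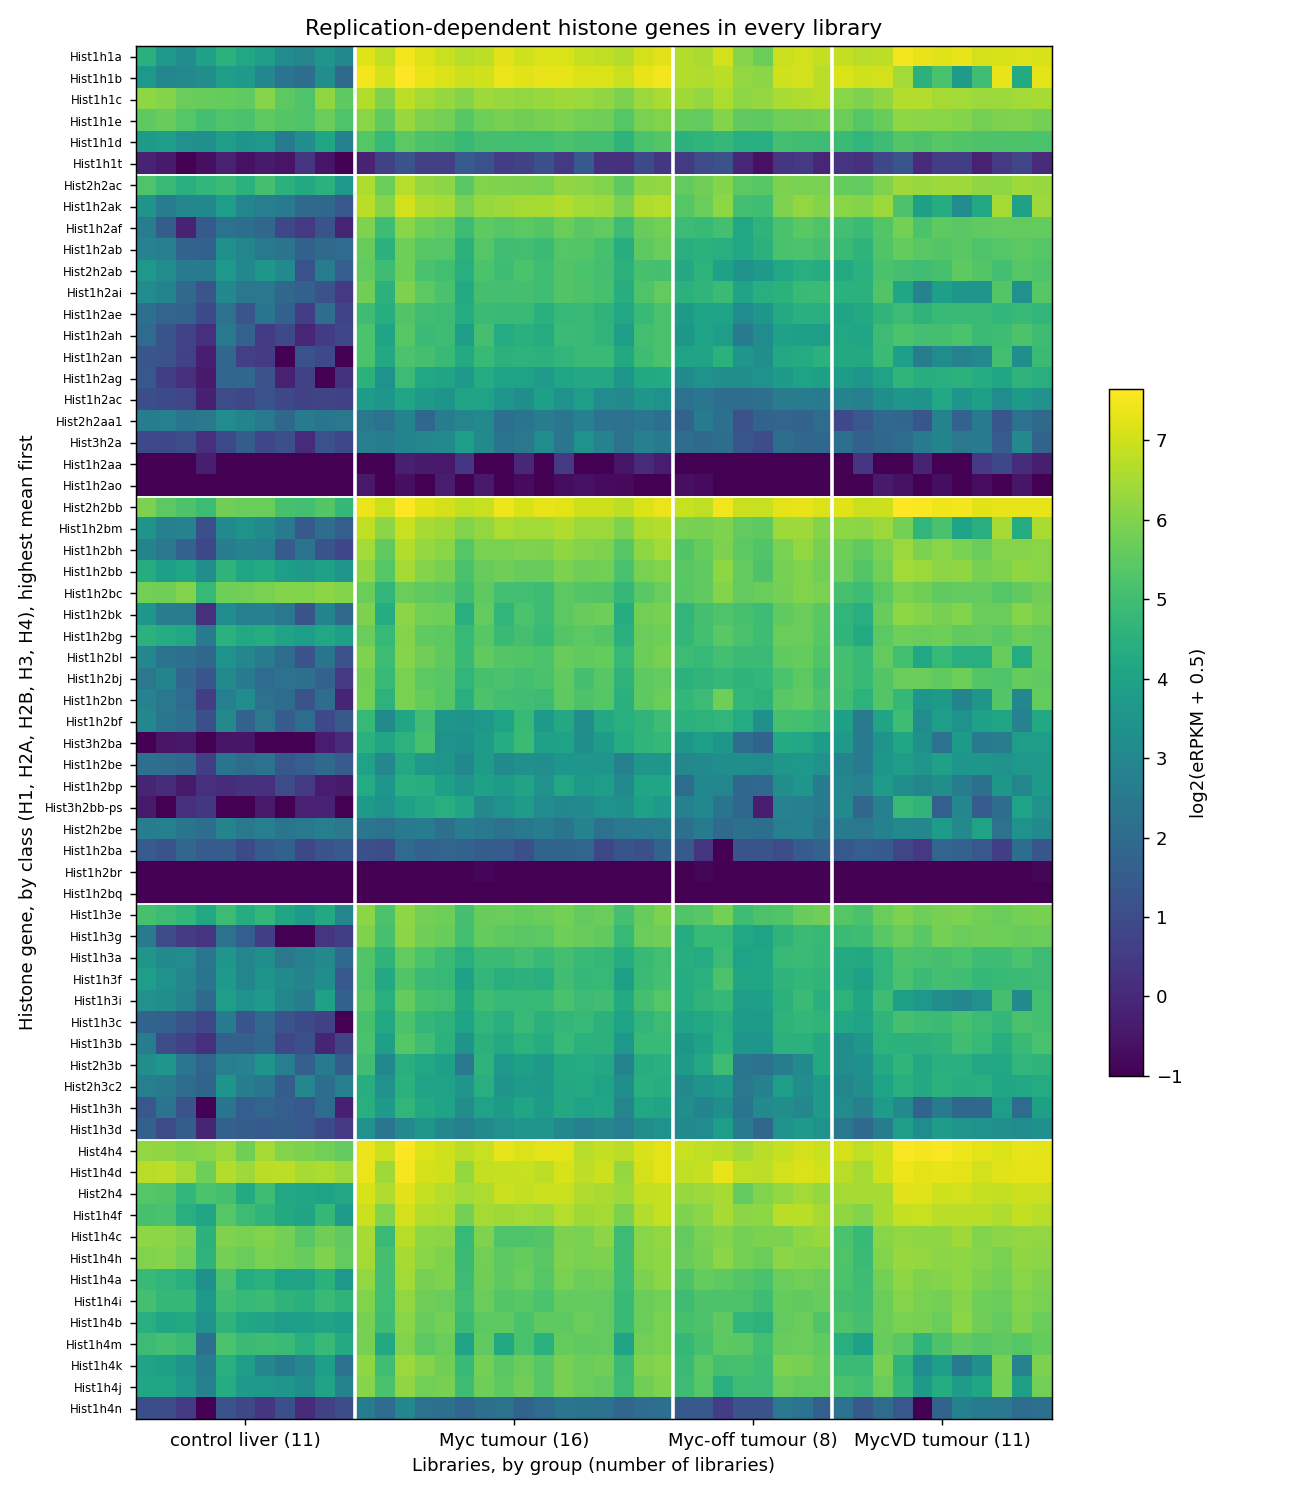
Level of each of the 64 histone genes (rows, grouped by class) in each of the 46 libraries (columns, grouped by condition), as log2(eRPKM + 0.5). Most rows are dark in control liver and bright in all 3 tumour groups, apart from a small set, such as Hist1h2bc and Hist4h4, that is already bright in control liver.

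How histone RNA differed between tumour and normal tissue was asked first, with Myc tumours set against control liver. In Myc tumours 54 of the 60 tested members rose and 1, Hist1h2bc, fell. Their median log2 fold change was 1.98 (range −0.49 to 4.85). All genes tested had a median of 0.28, and 80.0% of the 14566 were called, 50.4% as higher and 29.7% as lower (limma, Benjamini-Hochberg at 0.05). In 48 of the 60 every Myc ID lay above every control ID, and 35.1% of all genes tested did so. The summed level of the members was 570 to 1131 eRPKM in control libraries and 1809 to 3982 in Myc libraries, without overlap. After median-ratio scaling the median of all genes tested was 0.05 and the share of higher genes among those called 52.2%, against 62.9% without it; the members then had 51 rises, 1 fall and a median of 1.74. In bulk tissue, more cells in S phase and more histone RNA per cell cannot be told apart.

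Every H1 gene rose (median log2 fold change 1.49). Hist1h1a was 7.14, 12.2 and 22.7 eRPKM in control liver (lowest, median and highest library) and 100, 132 and 174 in Myc tumours. The lowest tumour was above the highest control, and the log2 fold change was 3.27 (SE 0.19, limma adjusted p = 3.1e-16). Hist1h1b, a linker gene of another chromosome 13 run, went from 3.43, 7.81 and 13.6 eRPKM to 122, 156 and 199, a log2 fold change of 4.21 (SE 0.39, limma adjusted p = 2.3e-11), again without overlap. The other H1 genes rose less. Hist1h1d, with 5.41, 10.6 and 16.5 eRPKM in control liver, reached 24.3, 33.8 and 44.0, without overlap, a log2 fold change of 1.64 (SE 0.15, limma adjusted p = 1.4e-11). Hist1h1c was 37.9, 49.5 and 73.7 eRPKM in control liver and 60.2, 79.6 and 110 in tumours, so the libraries overlapped, with a log2 fold change of 0.57 (SE 0.12, limma adjusted p = 6.3e-05). Hist1h1t, the testis linker histone, reached at most 2.34 eRPKM in a Myc tumour and had a log2 fold change of 1.33 (SE 0.20, limma adjusted p = 4.7e-07).

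Among H2A genes 12 of 13 tested rose, with a median of 3.10. Hist2h2ac, the most abundant H2A gene over all IDs, was 11.8, 22.9 and 37.8 eRPKM in control liver and 43.0, 67.3 and 102 in Myc tumours, a log2 fold change of 1.44 (SE 0.16, limma adjusted p = 1.2e-09). Hist1h2ak started lower, at 2.10, 5.99 and 13.9 eRPKM, and reached 59.1, 89.7 and 131, a log2 fold change of 3.75 (SE 0.37, limma adjusted p = 1.1e-10). Neither gene's tumours overlapped the controls. Hist2h2aa1 was the exception, with 5.14 eRPKM in the median control and 4.77 in the median tumour library and a log2 fold change of 0.02 (SE 0.20, limma adjusted p = 0.93). Every 50-base stretch of its annotated transcript of 586 bases was shared with other transcripts. Its recovered length was 2337 bases, so here and below its value may not stand for this gene or that transcript alone.

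H2B was the class with members in both directions: 14 of 17 rose and 1 fell, with a median of 3.06. Hist2h2bb went from 26.4, 40.0 and 61.4 eRPKM to 109, 140 and 197, a log2 fold change of 1.74 (SE 0.13, limma adjusted p = 2.5e-13). Hist3h2ba was at or near 0 in control liver, with 0.532 eRPKM in the highest control, and between 9.49 and 34.7 eRPKM in Myc tumours, a log2 fold change of 4.70 (SE 0.27, limma adjusted p = 2.9e-16). Both genes separated the groups fully. Hist1h2bc, reported to make polyadenylated transcripts, was the reverse: 27.0, 58.9 and 70.5 eRPKM in control liver and 26.2, 41.4 and 52.1 in Myc tumours. It fell by 0.49 on the log2 scale (SE 0.14, limma adjusted p = 0.0020), with overlapping groups. With depth as a term the call was lost (log2 fold change −0.12, limma adjusted p = 0.52), and its median was 402 reads per kilobase in control liver and 391 in Myc tumours. Hist2h2be, another member with a polyadenylated form, had a log2 fold change of −0.01 (SE 0.16, limma adjusted p = 0.94) and the testis gene Hist1h2ba one of 0.17 (SE 0.19, limma adjusted p = 0.42).

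All 11 H3 genes rose, with a median of 1.89. Hist1h3g had the largest log2 fold change of the tested members on the log2(eRPKM + 0.5) scale, although Hist3h2ba, from a mean of 0.150 to 17.0 eRPKM, had the larger ratio of group means. Hist1h3g was 0, 1.00 and 5.59 eRPKM in control liver and 27.5, 48.4 and 69.8 in Myc tumours, with a log2 fold change of 4.85 (SE 0.34, limma adjusted p = 2.7e-14). Hist1h3e, among the 2 most abundant H3 genes, went from 7.22, 20.0 and 34.4 eRPKM to 33.3, 50.3 and 72.6, a log2 fold change of 1.28 (SE 0.20, limma adjusted p = 6.5e-07); here the lowest tumour lay within the control range. For H4, 11 of 13 rose, with the lowest class median, 1.41. Hist4h4, the only one of these genes on chromosome 6, was 46.5, 65.6 and 87.7 eRPKM in control liver and 105, 141 and 192 in Myc tumours, a log2 fold change of 0.97 (SE 0.12, limma adjusted p = 5.2e-09). Hist1h4d, the most abundant member in control liver, moved from 53.0, 94.4 and 110 eRPKM to 76.5, 123 and 185, a log2 fold change of 0.38 (SE 0.13, limma adjusted p = 0.0076). The 2 H4 genes that did not pass were Hist1h4c, at 0.12, and Hist1h4h, at 0.09 (SE 0.20 and 0.18, limma adjusted p = 0.59 and 0.63). Their medians were 59.6 and 55.5 eRPKM in control liver and 61.9 and 60.2 in Myc tumours.

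**Figure D2:**
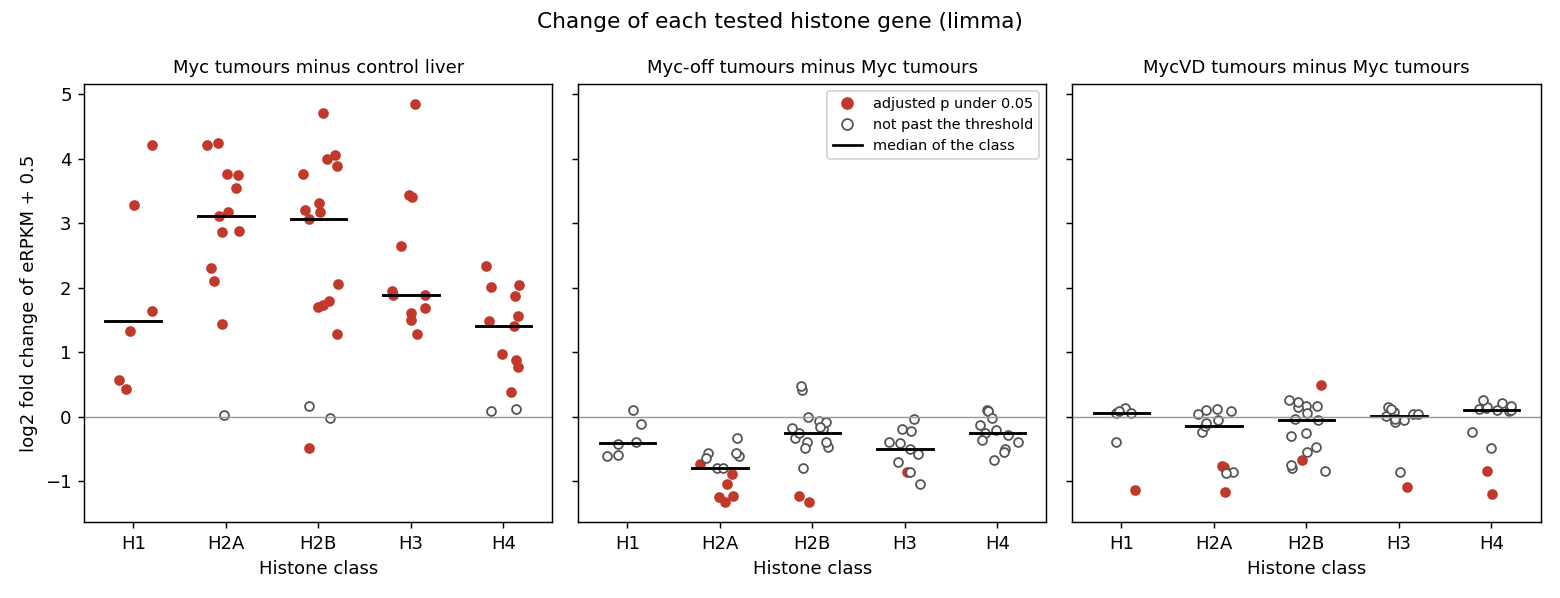
log2 fold change of each tested member (points) by histone class (H1, H2A, H2B, H3, H4), in 3 panels: Myc tumours minus control liver, Myc-off minus Myc tumours, and MycVD minus Myc tumours. Filled points passed an adjusted p of 0.05; in the left panel nearly all points lie above 0, in the middle panel 53 of 60 lie below 0, and in the right panel 30 lie on each side.

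The mix of histone RNAs differed along with the amount. The 8 members with the highest mean in control liver (Hist1h4d, Hist4h4, Hist1h2bc, Hist1h4c, Hist1h1c, Hist1h4h, Hist2h2bb and Hist1h1e) made up 44.4% to 62.3% of the summed member level in control libraries. In Myc tumours they made up 24.2% to 27.0%. H4 genes alone made up 47.3% to 52.8% of the sum in controls and 29.8% to 33.2% in Myc tumours, and neither share overlapped between the groups. The shares add values per length, so they are not shares of reads. Recovered lengths were 312 bases for 9 H4 genes, 1561 for Hist1h1c and 1931 for Hist1h1e. In control ID125319 Hist1h1c had 891 reads and Hist1h4d 260. The 8 genes were picked from the control values, so their lower share in tumours is a description. In Myc tumours Hist2h2bb, Hist4h4 and Hist1h4d had medians of 1368, 1316 and 1255 reads per kilobase, in or near the range that Eef1a1 kept at every depth, and the part of this in the shares was not tested. Of the 6 members reported to have polyadenylated forms, 3 rose (Hist1h1c, Hist4h4 and Hist3h2a) and 1 fell, with a median of 0.29.

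Members with and without sequence shared with other transcripts mostly rose. Of the 33 tested members with at most 50% of their 50-base stretches shared, 28 rose and 1 fell, with a median of 1.80; of the 27 with more than 50% shared, 26 rose and 0 fell, with a median of 2.64. Those with more than 300 bases after the stem-loop rose in 16 of 17 cases, with a median of 1.64, and those with 300 or fewer in 19 of 21, with a median of 1.95. These bases are those of the annotated transcript, and some members were counted over fewer bases than it holds and some over more. Hist4h4 had a recovered length of 312 bases against a transcript of 2863, Hist1h4d 312 against 1138, and Hist1h1c 1561 against 1560. Hist2h2aa1, in the set with 300 or fewer bases, had 2337 against 586. The split is therefore one of annotation, not of counted reads. Of the 22 tested members with no stem-loop in the transcript 19 rose and 1 fell, with a median of 3.15. For some of these the annotated transcript is short. Hist1h4k, with 312 bases, showed no loop, while in Hist1h4j the loop ended at base 389 of 774. A loop missing from the annotation is not shown to be missing from the gene.

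Genes that make, process and handle histones were described beside the members. All 26 tested S-phase genes rose, with a median of 3.18, and 13 of 14 genes for histone transcription and mRNA processing rose, with a median of 0.98. Slbp, which binds the stem-loop, went from 20.8 ± 3.15 eRPKM (SD, n = 11) to 44.4 ± 2.94 (SD, n = 7), a log2 fold change of 1.09 (SE 0.08, limma adjusted p = 3.1e-14). Npat, the activator of histone transcription, rose by 1.39 (SE 0.10, limma adjusted p = 3.1e-14). Histone chaperones rose in 14 of 15 cases, with a median of 1.65, among them Asf1b, which hands H3 and H4 to the assembly machinery, and Chaf1a, a subunit of the replication-coupled assembly factor. Among 11 replication-independent histone genes there were 6 rises and 2 falls, median 0.26: H2afx rose by 2.77 (SE 0.16, limma adjusted p = 3.7e-16), while H3f3a, a gene for the replacement H3, had a log2 fold change of 0.03 (SE 0.10, limma adjusted p = 0.76).

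Markers of other cells moved too. Of 10 erythroid markers 9 rose, with a summed level of 62.0 to 106 eRPKM in control liver and 142 to 475 in Myc tumours. Of 9 hepatocyte markers 9 fell (953 to 1792 against 662 to 1253 eRPKM), and of 8 endothelial markers 6 fell and 0 rose (162 to 302 against 60.3 to 122). Lymphoid (5.12 to 14.5 against 7.0 to 18.1), macrophage (156 to 295 against 142 to 263) and cholangiocyte sums (25.3 to 44.8 against 11.6 to 54.0) overlapped. Single markers within these sums were still called in limma. Among macrophage markers Clec4f fell by 3.74 and Vsig4 by 2.56, while Cd68 rose by 2.30 on the log2 scale. The lymphoid markers Ncr1 and Nkg7 rose by 1.62 and 1.42 and Cd79a fell by 0.51. The cholangiocyte markers Sox9 and Krt19 fell by 1.64 and 1.06. No marker of these lists was at 0 in every library, and the part of these cells in the histone result was not tested.

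Switching Myc off was examined 16 hours after doxycycline food, against tumours in which Myc stayed on. Of the 60 tested members 9 fell and 0 rose (15 had an unadjusted p under 0.05), with a median of −0.40 on the log2 scale, and 53 of 60 lay below 0. All genes tested had a median of −0.00, with 50.7% called, 22.8% as higher and 28.0% as lower (limma, Benjamini-Hochberg at 0.05). The members' share of falls was below that of all genes here but above it in some other fits. With only the 2 groups fitted 25 of 60 members and 29.9% of all genes fell (limma). With tumours not averaged by ID it was 24 of 60 and 33.6%, in a fit that counts tumours of 1 animal as separate samples. After quantile normalisation 15 of 60 members and 28.4% of all genes fell, so the members' share was again the lower one. The summed level was 1723 to 2737 eRPKM in Myc-off libraries and overlapped the Myc range. The count of falls was 15, with 1 rise, without the 8 libraries of low Gapdh, where 30.3% of all genes fell, and 3 without Myc-off ID151964.

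H2A held most of the called falls. Of its 13 tested genes 6 fell, all 13 lay below 0, and the median was −0.79; in 9 of 13 all Myc-off IDs were below all Myc IDs. Over all members this held for 17, and 1 lay wholly above, where 25.9% of all genes tested lay wholly below and 19.6% wholly above. Hist1h2ac was 3.64, 4.50 and 5.71 eRPKM in Myc-off libraries (lowest, median, highest) and 7.82, 11.3 and 16.8 in Myc libraries, while the controls were at 0.352, 1.32 and 1.74. The 3 groups did not overlap, and Hist1h2ac fell by 1.32 on the log2 scale (SE 0.25, limma adjusted p = 4.7e-05). Hist1h2ah went from 13.5, 29.1 and 41.2 eRPKM to 5.41, 13.5 and 15.7, with overlapping libraries, and fell by 1.24 (SE 0.38, limma adjusted p = 0.0069). Hist3h2a fell by 1.23 (SE 0.31, limma adjusted p = 0.0014), and its highest Myc-off library, 3.88 eRPKM, was below its lowest Myc library, 4.27. The other H2A genes that fell were Hist2h2ab, by 1.04, Hist1h2ae, by 0.89, and Hist2h2aa1, by 0.73, with adjusted p of 0.017, 0.013 and 0.036 (limma).

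Outside H2A 3 genes fell. They were the H2B gene Hist1h2bp, by 1.23 (SE 0.27, limma adjusted p = 0.00035), the H2B pseudogene Hist3h2bb-ps, by 1.32 (SE 0.52, limma adjusted p = 0.035), and the H3 gene Hist2h3c2, by 0.86 (SE 0.33, limma adjusted p = 0.029). No H1 or H4 gene passed in limma (1 gene of each class had an unadjusted p under 0.05). The calls also divided by read number. Of 15 members over 400 mean reads per kilobase 0 fell, with a median of −0.21, and of 45 at or below it 9 fell, with a median of −0.49. Median depth was 7.14 M reads in Myc-off and 9.65 in Myc libraries. Hist2h2bb had a log2 fold change of 0.00, with medians of 975 and 1368 reads per kilobase. The part of this in the class pattern was not tested. Hist1h3g was 15.6, 25.6 and 29.2 eRPKM in Myc-off libraries against 27.5, 48.4 and 69.8 in Myc libraries. That is a log2 fold change of −1.04 (SE 0.48, limma adjusted p = 0.072), which did not pass the threshold; the Myc-off libraries overlapped the lower end of the Myc range. Hist1h1b had a log2 fold change of −0.61 (SE 0.55, limma adjusted p = 0.38), Hist1h1a one of −0.42 (SE 0.27, limma adjusted p = 0.20) and Hist1h4d one of 0.08 (SE 0.18, limma adjusted p = 0.74). Against control liver 51 of 60 rose and 1, Hist2h2aa1, fell, with a median of 1.55, where 58.3% of all genes tested were called, 37.3% as higher and 20.9% as lower. Both comparisons use the Myc-off IDs, and this one shares the controls with the Myc comparison.

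Genes around histone supply were described here too. Of 26 S-phase genes 25 fell, with a median of −1.39, and 13 of 15 chaperone genes fell, with a median of −1.01. Asf1b fell by 1.58 (SE 0.27, limma adjusted p = 1.4e-05) and Chaf1a by 1.72 (SE 0.24, limma adjusted p = 3.8e-07). Among the processing genes 11 of 14 fell, with a median of −0.56: Lsm11, a protein of the U7 particle that cuts histone pre-mRNA, fell by 1.58 (SE 0.16, limma adjusted p = 2.1e-09) and Npat by 0.49 (SE 0.14, limma adjusted p = 0.0040). Slbp had a log2 fold change of −0.20 (SE 0.11, limma adjusted p = 0.13). Of 8 histone mRNA decay genes 5 fell, including Eri1, an exonuclease that trims the stem-loop end, by 0.83 (SE 0.14, limma adjusted p = 1.1e-05). Of the replication-independent histones 4 of 11 fell and 1 rose, with a median of −0.12, among them H2afx, which fell by 1.30 (SE 0.23, limma adjusted p = 1.9e-05). The difference between these lists and the members was not tested. All 6 cholangiocyte markers rose (11.6 to 54.0 against 41.6 to 190 eRPKM) and 8 of 9 hepatocyte markers rose, while the erythroid sum was 146 to 456 eRPKM; their part in the result was not tested.

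**Figure D3:**
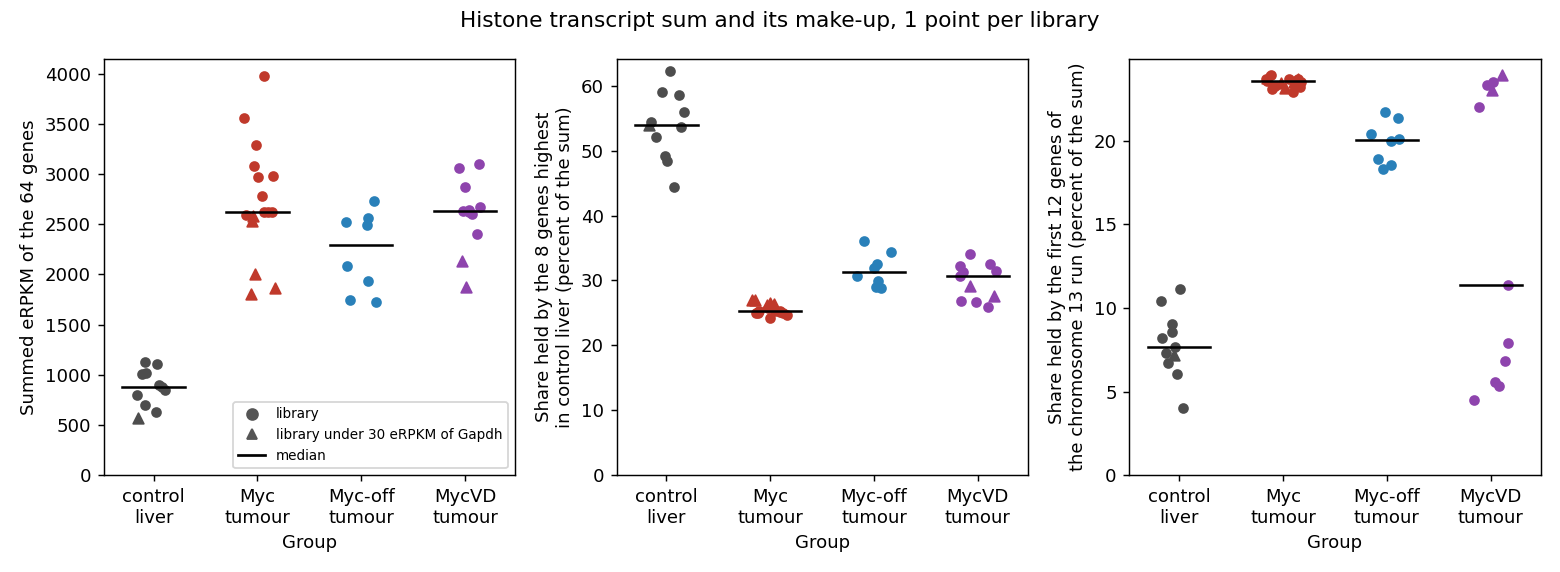
Summed level of the members in eRPKM (left), the share of that sum held by the 8 genes most abundant in control liver (middle, percent) and the share held by 12 neighbouring chromosome 13 genes (right, percent), by group. Points are libraries, and triangles are the 8 libraries with Gapdh under 30 eRPKM. In the right panel the MycVD points fall into a set from 22% to 23.9%, level with Myc tumours, and a set from 4.49% to 11.4%, level with control liver.

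The effect of the V394D substitution was examined by setting MycVD tumours against Myc tumours. Of the 60 tested members 8 fell and 1 rose (17 had an unadjusted p under 0.05), with a median of −0.01 on the log2 scale and 30 members on each side of 0. Across all genes 15.8% were called, 6.14% as higher and 9.69% as lower (limma, Benjamini-Hochberg at 0.05). The share of members that passed was therefore near the background. The members that fell were Hist1h4k, by 1.20, Hist1h2ak, by 1.17, Hist1h1b, by 1.14, Hist1h3h, by 1.08, Hist1h4j, by 0.84, Hist2h2aa1, by 0.78, Hist3h2a, by 0.76, and Hist1h2bp, by 0.67, with limma adjusted p from 0.010 to 0.047. The H2B gene Hist2h2be rose by 0.49 (SE 0.16, limma adjusted p = 0.041), with 4.05, 5.12 and 6.74 eRPKM in Myc libraries and 4.28, 7.91 and 15.5 in MycVD libraries, so the groups overlapped. With depth as a term 1 member fell and 0 rose (limma), without the 8 libraries of low Gapdh 13 fell and 2 rose, and refits without single IDs gave 3 to 9 falls. There were 3 falls without any one of Myc ID125320, ID126947, ID126948 or ID130395 or of MycVD ID133763, ID133764 or ID133765, and 4 without ID134668. In none of the 60 members did the MycVD IDs lie wholly outside the Myc IDs, against 0.783% of all genes tested wholly above and 1.32% wholly below.

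Of the 8 members that fell, 6 are neighbours. They belong to the first 12 genes, in RefSeq gene order, of a chromosome 13 run of 17 histone genes: Hist1h2bl, Hist1h2ai, Hist1h3h, Hist1h2bm, Hist1h4j, Hist1h4k, Hist1h2ak, Hist1h2bn, Hist1h1b, Hist1h3i, Hist1h2an and Hist1h2bp. These 12 were singled out after their values were seen, so what follows is a description. All 12 had a log2 fold change below 0, from −1.20 to −0.55, with a median of −0.86, and all 12 had an unadjusted p under 0.05. Of the other 48 tested members 1 rose and 2 fell, with a median of 0.06. The 28 tested genes of the largest run, also on chromosome 13, had a median of 0.06 with 0 called in limma and 0 at an unadjusted p under 0.05.

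Single libraries show that the MycVD tumours were not alike in these 12 genes. Hist1h1b was 142, 128, 133, 163 and 155 eRPKM in MycVD tumours ID133074, ID133079, ID134660, ID134664 and ID133761, within the Myc range of 122 to 199. It was 87.5 eRPKM in ID133762, 23.1 in ID133763, 35.3 in ID133764, 12.8 and 31.1 in tumours A and B of ID133765, and 18.8 in ID134668, and all 6 values were below every Myc library. The lowest of these, 12.8, lay within the control range of 3.43 to 13.6. Hist1h1a, the linker gene of another run, was 180, 165, 151, 159, 136 and 144 eRPKM in the same 6 tumours, each above the Myc median of 132. In reads these 6 had 841, 763, 880, 894, 918 and 941 of Hist1h1a, against 830 to 1046 in Myc tumours. Its median was 1126 reads per kilobase in MycVD and 1258 in Myc libraries. The 6 had a depth of 6.18 to 9.04 M reads, against 7.27 to 12.6 in Myc tumours, and the part of depth was not tested. The ratio of Hist1h1b to Hist1h1a was 1.10 to 1.25 in Myc tumours and 1.13 to 1.25 in the first 5 MycVD tumours, but 0.49, 0.14, 0.23, 0.08, 0.23 and 0.13 in the other 6; in control liver it was 0.44 to 0.88. These 2 genes share no 50-base stretch with another transcript.

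The H2A gene Hist1h2ak and the H4 gene Hist1h4k followed the same split. Hist1h2ak was 37.1, 14.4, 19.9, 8.78, 17.2 and 14.9 eRPKM in the 6 tumours, all below the lowest Myc library at 59.1, and 65.2 to 89.5 eRPKM in the other 5. Hist1h4k was 24.1, 8.81, 14, 5.53, 9.57 and 6.61 eRPKM in the 6, below the lowest Myc library at 28.6, and 29.1 to 61.3 in the other 5. In ID133763, both tumours of ID133765 and ID134668 all 12 genes were below every Myc library, in ID133764 11 of 12 and in ID133762 8 of 12. In the other 5 tumours 0 to 4 of 12 were. Among the other 48 tested members the 6 tumours had 1 to 4 below every Myc library and 1 to 8 above every one, and the other 5 had 1 to 15 below and 0 to 2 above.

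**Figure D4:**
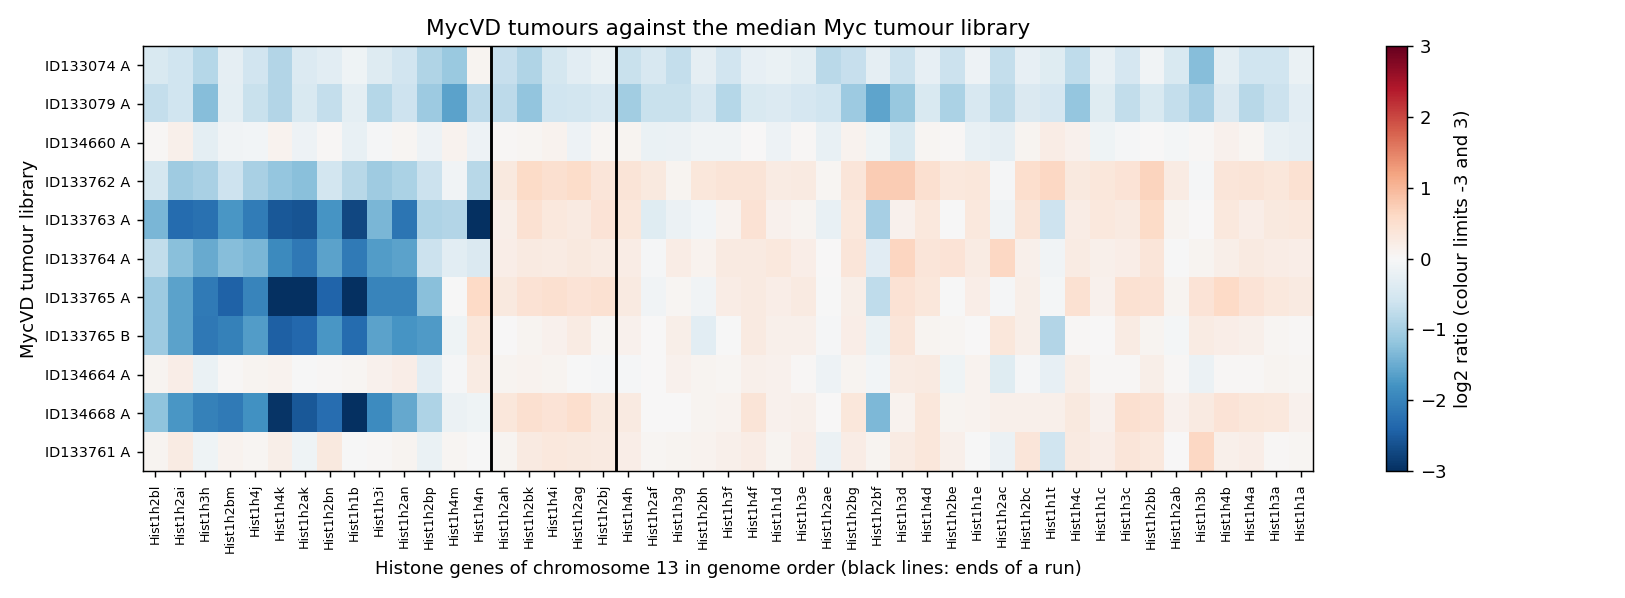
Histone genes of chromosome 13 in RefSeq gene order (columns, by run) in each of the 11 MycVD libraries (rows), coloured by the log2 ratio to the median Myc library, with colours capped at −3 and 3. The first 12 genes of one run are low in 6 libraries. The genes of the same run after them, Hist1h4m and Hist1h4n, are mixed, and the other runs are not low as a block.

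The share of the summed member level held by the 12 genes gives the same split for each library. In Myc tumours it was 22.9% to 23.9%. Myc-off tumours had 18.3% to 21.7%, and control livers 4.04% to 11.1%. In MycVD tumours it was 23.1%, 23.9%, 23.4%, 23.5% and 22% in ID133074, ID133079, ID134660, ID134664 and ID133761. In ID133762, ID133763, ID133764, tumours A and B of ID133765 and ID134668 it was 11.4%, 5.56%, 7.90%, 4.49%, 6.83% and 5.36%, within or just above the control range. The summed level of all members stayed within 1871 to 3105 eRPKM in MycVD tumours. The labels give the 11 MycVD libraries the same strain and genotype. Of the 8 libraries with low Gapdh, the 2 MycVD tumours, ID133074 and ID133079, are both outside the 6; without the 8 libraries, 11 of the 12 genes fell, with a median of −1.06, while with depth as a term 0 of the 12 were called in limma, with a median of −0.63.

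Genes just outside the 12 varied. Hist1h4m, an H4 gene and the next tested member of the same run, was 14.9 to 49.6 eRPKM in MycVD tumours and 15.2 to 64.5 in Myc tumours. In the same 6 tumours it was 42.7, 24.8, 37.3, 45.9, 42.1 and 40.7 eRPKM, each above the Myc minimum and below the Myc median of 46.2. Myc libraries of low Gapdh had 58 to 88 reads of Hist1h4m, and the other Myc libraries 157 to 220. Hist1h4n, the next tested member, was 2.05, 0, 2.87, 6.38, 5.32 and 3.67 eRPKM in the 6. Of these 2.05, 0 and 2.87 were below the Myc minimum of 2.95. The other 5 had 4.31, 2.14, 3.64, 4.95 and 4.04, with 2.14 below it. No library had over 17 reads of Hist1h4n. On the other side the zinc-finger gene Zkscan8 was the nearest gene before the run with a mean of at least 1 eRPKM in Myc tumours. It was 13.7, 13.3, 12, 12, 11.4 and 11.8 eRPKM in the 6 and 12.4, 11.45, 16.6, 15.2 and 13 in the other 5, in the library order used above, against 13.9 to 23.0 in Myc tumours. All 6, and 3 of the other 5, were below every Myc library. Beyond the far end of the run, the zinc-finger gene Zfp184 was 3.31 to 5.53 eRPKM in the 6, with 5 below the lowest Myc library at 5.07, and 3.64 to 6.16 in the other 5, with 1 below it. The protease gene Prss16 was 0.521, 1.35, 0.476, 2.90, 3.14 and 2.56 eRPKM in the 6 and 3.64 to 7.78 in the other 5, without overlap, against 1.27 to 4.31 in Myc tumours, and 4 of the 6 lay within the Myc range. Zfp322a and Mir1983, also beyond the far end, were 18.8 to 28.9 and 2.45 to 10.1 eRPKM in the 6. None of these values lay below the Myc minimum, 18.7 for Zfp322a and 0.942 for Mir1983. Abt1, on the same side, was 9.15 to 13.7 eRPKM in the 6, partly below its Myc minimum of 11.7. All these neighbours were picked after their values were seen. The share of all genes that separated the 6 from the other 5 as Prss16 did was not tested. Start-site windows of the 12 held CCAAT in 10 of 12 cases and TATAAA in 9 of 12, and those of the 46 other members in 39 and 25.

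**Figure D5:**
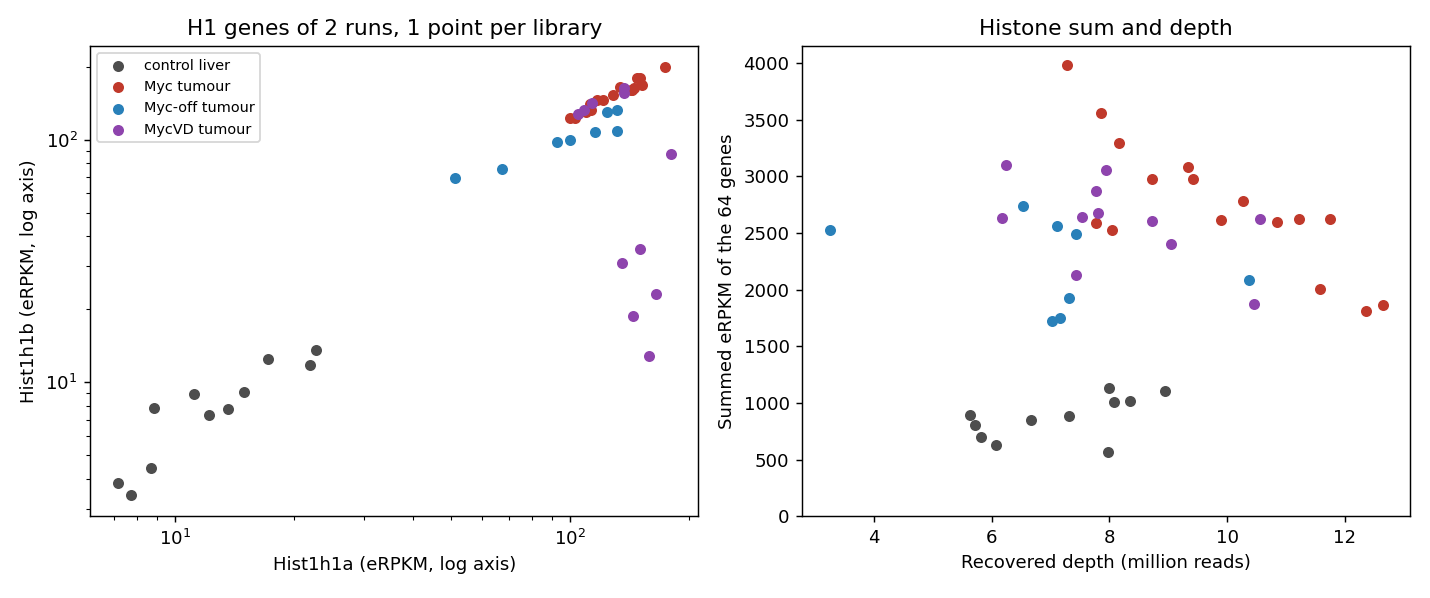
Left, Hist1h1b against Hist1h1a in each library (eRPKM, both axes logarithmic), by group; right, summed member level against recovered depth in M reads. Myc tumours form 1 cluster in the left panel, and 6 MycVD libraries lie below it, with Hist1h1b from 12.8 to 87.5 eRPKM and Hist1h1a from 136 to 180.

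The lists around histone supply gave no call in MycVD against Myc tumours: 0 of 26 S-phase genes, 0 of 14 processing genes, 0 of 8 decay genes, 0 of 15 chaperones and 0 of 11 replication-independent histones passed in limma, with medians from −0.03 to 0.00. At an unadjusted p under 0.05 the counts were 0, 1, 0, 1 and 4. Npat had a log2 fold change of −0.11 (SE 0.10, limma adjusted p = 0.47) and Slbp one of 0.02 (SE 0.08, limma adjusted p = 0.89). Of 9 hepatocyte markers 5 rose (854 to 1368 eRPKM in MycVD and 662 to 1253 in Myc tumours). Of 8 macrophage markers 3 fell (125 to 218 against 142 to 263 eRPKM). Also called in limma were the endothelial markers Stab2, at −1.06, and Tek, at −0.62. The cholangiocyte marker Epcam rose by 1.84 and the lymphoid marker Ncr1 fell by 0.73 on the log2 scale. The part of these cells in the histone result was not tested. Against control liver 54 of 60 members rose in MycVD tumours and 2, Hist2h2aa1 and Hist1h2bc, fell, with a median of 1.84, where 80.2% of all genes tested were called, 49.2% as higher and 31.1% as lower; 34 of 60 were above every control ID, against 25.8% of all genes. This comparison shares the controls with the others.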

How the data were processed

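RNA was extracted, treated with DNase and depleted of ribosomal RNA, and TruSeq RNA v2 libraries, which do not mark strand, were sequenced, per the labels' protocols. Reads were aligned with TopHat2 2.0.8 to mm9, per the submitters' processing notes; the counter, its annotation and its handling of duplicates and of reads with several matches are not given in those sources. The authors deposited exonic RPKM values (eRPKM) for 21671 genes in 46 libraries.

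Libraries were averaged per animal ID (31 IDs: 11 control, 7 Myc, 3 Myc-off and 10 MycVD). The 14566 genes that reached 1 eRPKM in 3 or more IDs, 60 members among them, were kept, and limma 3.58.1 in R 4.3.3 was fitted to log2(eRPKM + 0.5) over the 4 groups together, with a mean-variance trend, two-sided tests and Benjamini-Hochberg adjustment at 0.05 over all genes kept. Fold changes are on that scale, which understates those of low genes. The fit was tested on simulated data. Animals are read from the IDs in the sample titles. Counts of genes without overlap between groups are over IDs. Overlap stated for a single gene beside its lowest, median and highest values is over libraries. A gene with overlapping libraries, such as Hist1h3e, can thus be in the counts.

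Low values are whole multiples of the value of 1 read, which gave the relative depth (control 5.63 to 8.95 M reads, Myc 7.27 to 12.6, Myc-off 3.25 to 10.4, MycVD 6.18 to 10.6) and the length of 60 members, with reads called whole within 0.02. The closest pair of libraries of 1 group differed by a chi-square of 1.83 per degree of freedom over 187 genes, so no pair was treated as the same library.

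Members and gene lists were chosen with earlier results of these data known. Members named are the 2 most abundant of each class, the 3 largest called rises and falls of the 3 main comparisons, called members against the main direction, and members of the lists for polyadenylated and germline forms. The other called falls, Hist1h1d, Hist1h4c, Hist1h4h, Hist1h4m, Hist1h4n and the 12 neighbouring genes were added after their values were seen. Gene order and start-site windows are from RefSeq (GRCm38 and GRCm38.p6) and stem-loops from GENCODE transcripts; no coordinates were converted from mm9. A run of histone genes ends where 3 or more other protein-coding genes follow. Alternatives covered the pseudocount, filter, scaling, depth, tumours as samples, array weights, the groups fitted and each ID left out.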

Additional observations from a re-analysis of the deposited data

How the results depend on the processing

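Counts of called members in Myc tumours against control liver were 54 rises and 1 fall whichever ID was left out; the falls numbered 3 after quantile normalisation and 0 with depth as a term. In Myc-off against Myc tumours the 9 falls became 15 after quantile normalisation, 24 with every tumour as its own sample (with 1 rise), 25 with only the 2 groups fitted (1 rise), 15 without the 8 libraries of low Gapdh (1 rise), and 3 to 11 with 1 ID left out; array weights gave 1 rise. In MycVD against Myc tumours the 8 falls and 1 rise became 5 falls with a pseudocount of 0.1, 0 rises with no filter, 1 fall and 0 rises with depth as a term, 15 falls with every tumour as its own sample, 15 falls and 6 rises with array weights, 5 falls and 0 rises with only the 2 groups fitted, 13 falls and 2 rises without the 8 libraries, and 3 to 9 falls and 0 to 1 rises with 1 ID left out. Against control liver, Myc-off falls numbered 3 after quantile normalisation and 0 to 1 with 1 ID left out, and MycVD falls 1 with depth as a term and 1 to 2 with 1 ID left out. The cause of these shifts was not tested. The 8 libraries and the shallowest one were chosen after seeing the data.

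Some log2 fold changes, none of them past the threshold as reported, changed sign. After quantile normalisation these were, in Myc against control, Hist1h2ba at −0.38 and Hist2h2aa1 at −0.52; in Myc-off against Myc, Hist1h1c at −0.093, Hist1h4d at −0.23 and Hist2h2bb at −0.38; and in MycVD against Myc, Hist1h1a at −0.059, Hist1h1c at −0.088, Hist2h2ac at −0.036, Hist2h2bb at −0.037 and Slbp at −0.045. After median-ratio scaling they were, in Myc against control, H3f3a at −0.22, Hist1h2ba at −0.040, Hist1h4c at −0.13, Hist1h4h at −0.16 and Hist2h2aa1 at −0.21, and Hist1h3g at 0.0083 in MycVD against Myc. With depth as a term they were Hist1h2ba at −0.17 and Hist2h2aa1 at −0.36 in Myc against control, Hist1h3e at 0.015, Hist1h4d at −0.15 and Hist2h2bb at −0.042 in Myc-off against Myc, and Hist1h2bc at −0.073 and Hist1h3g at 0.37 in MycVD against Myc. With every tumour as its own sample Hist2h2aa1 was at −0.084, Hist2h2bb at −0.051 and Slbp at −0.016; with array weights H3f3a at −0.044, Hist1h3g at 0.080, Hist1h4c at −0.014 and Hist1h4h at −0.030; without the 8 libraries Hist1h4d at −0.048 and Hist2h2bb at −0.027; without the shallowest library Hist2h2bb at −0.068.

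With 1 ID left out, in Myc against control, H3f3a ranged from −0.019 to 0.058, Hist1h4c from −0.0011 to 0.18, Hist1h4h from −0.013 to 0.14, Hist2h2aa1 from −0.068 to 0.084 and Hist2h2be from −0.069 to 0.021; in Myc-off against Myc Hist2h2bb ranged from −0.083 to 0.086, and in MycVD against Myc Hist1h3g from −0.11 to 0.018 and Slbp from −0.0016 to 0.043. In MycVD against Myc, Hist1h1b ranged from −1.28 to −0.94 and missed the threshold in 12 of 17 such fits (limma adjusted p from 0.027 to 0.090), Hist1h3h in 13, Hist2h2be in 12, Hist1h4j, Hist1h4k and Hist1h2ak in 8 each and Hist3h2a in 2. In Myc-off against Myc, Hist2h2aa1 missed it in 5 of 10 fits, Hist3h2bb-ps in 4, Hist2h3c2 in 2, and Hist1h2ae, Hist1h2ah and Hist2h2ab in 1 each. No paired analysis was possible because the groups share no animal IDs. Depth limits members near 0, for which 1 read is a large step.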
